A study of Mus musculus with 20 samples.

Results

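The genes described here are the metallothioneins Mt1, Mt2 and Mt3, their metal sensor Mtf1 and the zinc exporter Slc30a1, 5 of the 34083 mouse genes that the transcript quantifications could be summed to. They were chosen by name, as genes of the cellular response to metals, and their estimated reads and TPM, a level corrected for transcript length and scaled to the same sum in every library, were summed over all annotated transcripts of each gene. Transcripts of all 5 were among those quantified in all 20 libraries, but Mt1 had reads in 13 of them and Mt2 in 4.

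The study asked how N2A cells, a mouse neuroblastoma line, respond in their transcriptome to the pulsed near-infrared lasers used for stimulated Raman scattering (SRS) imaging. Whole wells were lysed 1 h after exposure and polyadenylated RNA was sequenced, and the labels place the libraries in 2 batches. Batch 1 held 5 groups of 3 libraries, of which NC received no laser and the others were exposed through a 20X objective to I0-E0 (20 mW, 10 J/cm2, 2 µs per pixel), I0-E2 (20 mW, 48 J/cm2, 10 µs), I0-E4 (20 mW, 95 J/cm2, 20 µs) or I2-E2 (100 mW, 48 J/cm2, 2 µs). Batch 2 held its own NC with 2 libraries and I3-E3-SRS with 3 libraries, in which both lasers of an SRS microscope scanned the cells through a 60X objective (65 mW in total, 79 J/cm2, 2 µs per pixel). All groups were the same cell line. The 4 settings of batch 1 share the same NC libraries, so their comparisons are not independent of each other. By the study's methods, whole culture wells were exposed and lysed, with unexposed wells handled alongside. The labels do not say that the wells came from separate cultures, and each p-value covers the spread between libraries only, which may be technical.

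Metallothioneins are small cysteine-rich proteins that bind zinc and copper and can be oxidised by reactive oxygen species, which releases their zinc. Free zinc activates the transcription factor MTF-1, encoded by Mtf1, which binds metal response elements (MREs) in the promoters of Mt1, Mt2 and Slc30a1. Mt1 and Mt2 are widely used as reporters of metal load and of oxidative and glucocorticoid stress, whereas Mt3 is a form found mainly in the nervous system and responds little to metals.

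The 250 bases before the RefSeq transcription start are printed for both classical metallothioneins, for the zinc exporter and for the nervous-system form as a contrast. Bases outside these windows, including those after the RefSeq start, were not searched, so MREs there would not be counted. Which start these cells use was not tested, so the numbers of matches do not rank the promoters of these genes. All 5 genes had a window in the RefSeq promoter table (build GRCm38.p6); that of Mtf1 is not printed. Capitals mark matches to the MRE core, searched as TGCACNC or TGCGCNC on both strands, so that a match on the opposite strand reads GNGTGCA or GNGCGCA.
Mt1 promoter window, chr8:94178839-94179088, + strand: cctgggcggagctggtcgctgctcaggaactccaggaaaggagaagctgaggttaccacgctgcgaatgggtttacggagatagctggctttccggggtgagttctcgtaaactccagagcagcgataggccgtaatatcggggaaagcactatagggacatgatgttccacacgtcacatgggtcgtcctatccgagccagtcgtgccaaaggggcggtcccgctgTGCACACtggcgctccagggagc
Mt2 promoter window, chr8:94172368-94172617, + strand: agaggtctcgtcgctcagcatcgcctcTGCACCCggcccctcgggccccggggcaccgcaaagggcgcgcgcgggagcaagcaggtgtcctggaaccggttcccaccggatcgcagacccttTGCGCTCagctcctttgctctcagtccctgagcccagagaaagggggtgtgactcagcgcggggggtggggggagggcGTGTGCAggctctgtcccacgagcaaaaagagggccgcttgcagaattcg
Slc30a1 promoter window, chr1:191906531-191906780, + strand: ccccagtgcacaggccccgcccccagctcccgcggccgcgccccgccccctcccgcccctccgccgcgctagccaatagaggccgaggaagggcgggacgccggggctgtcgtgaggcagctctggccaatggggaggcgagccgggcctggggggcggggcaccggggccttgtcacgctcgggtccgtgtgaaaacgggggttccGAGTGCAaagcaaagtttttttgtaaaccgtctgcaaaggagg
Mt3 promoter window, chr8:94152357-94152606, + strand: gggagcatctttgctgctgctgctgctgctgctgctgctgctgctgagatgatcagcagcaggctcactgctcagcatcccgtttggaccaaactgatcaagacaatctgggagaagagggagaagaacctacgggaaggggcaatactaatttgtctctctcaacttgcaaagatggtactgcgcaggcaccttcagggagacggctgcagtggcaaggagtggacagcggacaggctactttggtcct

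The Mt2 window held 3 matches that do not overlap each other, at bases -223 to -217, -128 to -122 and -50 to -44, the last one on the opposite strand. Positions are counted from the RefSeq start, which lies 46 bases before the GENCODE gene start given below for Mt2 and 7 and 14 bases after it for Mt1 and Slc30a1. For Mtf1 the RefSeq start lies 445 bases after the GENCODE start, so the Mtf1 window lies within the GENCODE gene. A window with 3 or more matches was found for 1.26% of 32851 promoter windows of the same length. The Mt1 window held 1 match, at bases -23 to -17, and the Slc30a1 window held 1, at bases -43 to -37 on the opposite strand. At least 1 match was present in 21.4% of all windows. The Mt3 and Mtf1 windows held 0 matches, which says only that these letters were not in these 250 bases. The windows also differed in base composition, with 17 CpG dinucleotides in Mt1, 21 in Mt2, 25 in Slc30a1 and 5 in Mt3. A match is a description of the sequence and not a measured binding site.

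Library depth lay between 5473588 and 12698770 estimated reads. Batch 2 NC replicate 1 stood apart from the other libraries. Its effective transcript lengths were whole numbers for 100% of the 55066 transcripts of at least 1000 bases, against at most 0.959% in each other library, and its TPM of N2A markers summed to 1440 against 2391 to 2650 elsewhere. The TPM of this library thus rest on effective lengths of another form, and batch 2 fold changes of the members are given with and without it, in a fit where the remaining NC library stands alone and is assumed to vary like the exposed libraries. Of 13 neuroblast markers, 10 reached 1 TPM in NC of batch 1, while Nefl and Nefm were close to 0. Of 12 markers of other cell types, 3 reached 1 TPM there (Pdgfra, Cd68 and Pecam1), and the summed level of the 12 stayed between 4.02 and 20.05 TPM in all libraries. Across all genes, edgeR's quasi-likelihood test called 0 genes at an adjusted p of 0.05 in every comparison described below (a background of 0% called). Unadjusted p-values under 0.05 were found for 413 genes in I0-E0, 413 in I0-E2, 973 in I0-E4, 884 in I2-E2 and 484 in I3-E3-SRS. DESeq2 called 1, 0, 1, 0 and 15 genes in the same order, and limma-voom called 0 in each of the 5.

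Mt1, the main inducible metallothionein (ENSMUSG00000031765, chromosome 8, bases 94179082 to 94180327, + strand, GRCm38), was close to silent. All 20 libraries together held 21 reads of it among all reads assigned to genes, or 0.132 reads per 1000000 (exact 95% Poisson interval 0.0818 to 0.202, which covers counting error only). Of 21855 protein-coding genes, 33.7% had this many reads or fewer. In batch 1, Mt1 had 1, 1 and 0 reads in NC, 1, 2 and 1 in I0-E0, 0, 1 and 1 in I0-E2, 4, 1 and 1 in I0-E4, and 2, 0 and 0 in I2-E2. In batch 2 it had 0 and 1 reads in NC and 0, 0 and 4 in I3-E3-SRS. The highest count was thus 4, seen once in I0-E4 and once in I3-E3-SRS, and the read counts of every exposed group overlapped those of its NC. Scaled to library size, I0-E0 lay just above NC, at 0.125 to 0.264 against 0 to 0.121 CPM (counts scaled to 1000000 per library), on counts of 0 to 2 reads. Groups did not overlap in either direction for 9.04% of the genes tested in this comparison, which do not include Mt1.

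Because Mt1 did not pass the filter on low counts, its groups were compared by summed reads where these exceeded the floor of 3. I0-E4 had 6 reads against 2 in NC, a ratio per assigned read of 3.36 with an exact 95% interval of 0.6001 to 34.0. I0-E0 had 4 against 2, a ratio of 1.95 (0.279 to 21.5), and I3-E3-SRS had 4 against 1, a ratio of 1.78 (0.176 to 87.8). All 3 intervals include equal levels and are wide, and a difference was not detectable at this depth. In bulk RNA, fewer cells expressing a gene and less RNA per cell cannot be told apart. I0-E2 and I2-E2 had 2 reads each, at or under the floor of 3 reads like NC, and no ratio is given.

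Mt2, the second inducible form (ENSMUSG00000031762, chromosome 8, bases 94172664 to 94173568), had even fewer reads. A single read was found in each of 4 libraries, I0-E2 replicate 3, I2-E2 replicate 3, batch 2 NC replicate 1 and I3-E3-SRS replicate 3, and 0 in the other 16. The total of 4 reads corresponds to 0.0252 reads per 1000000 (0.00686 to 0.0645). No group held more than 1 read, under the floor of 3 reads, so groups were not compared. The exact 95% upper limits of the groups lay between 0.157 and 0.392 reads per 1000000. The count is also uncertain in its source, since only 41.9% of the 31-base words of Mt2 transcripts are unique to it and most of the rest belong to an antisense gene that is not among the quantified transcripts. Mt4, the epithelial metallothionein of the same cluster, had 0 reads in all libraries, with an exact 95% upper limit of 0.0232 reads per 1000000.

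**Figure D1:**
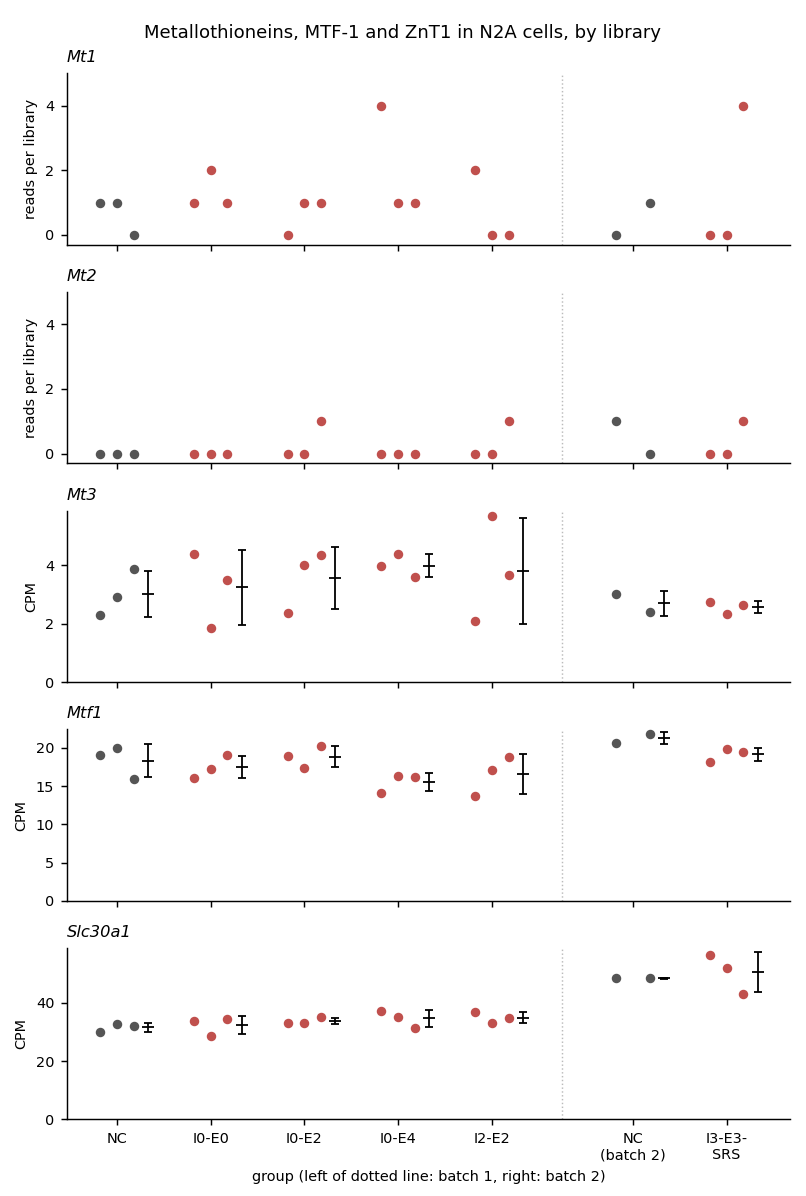
Values of the 5 genes in each library (points, grey for NC and red for exposed cells), as reads per library for Mt1 and Mt2 and as CPM for Mt3, Mtf1 and Slc30a1, with group means and SD (bars) for the latter 3; the dotted line separates batch 1 from batch 2. Mt1 reached at most 4 reads and Mt2 at most 1, while the other 3 genes were detected in every library.

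Other genes of the locus were expressed. Among genes whose first base lies within 200 kb of the Mt1 start on chromosome 8, the levels in NC of batch 1 were 174 ± 10.8 TPM for Nup93, a nuclear pore subunit, and 129 ± 5.00 TPM for Nudt21, a factor of pre-mRNA 3′ end processing (SD, n = 3). Ogfod1, an oxygenase, and Bbs2, a component of the ciliary BBSome complex, were at 15.8 ± 1.00 and 9.202 ± 0.563 TPM. Mt3, which lies between Mt4 and Mt2, was at 14.0 ± 3.42 TPM, against 0.359 ± 0.311 TPM for Mt1 and 0 for Mt2 and Mt4. Slc12a3, a kidney salt transporter, was the remaining neighbour under 1 TPM, at 0.414 ± 0.0453.

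**Figure D2:**
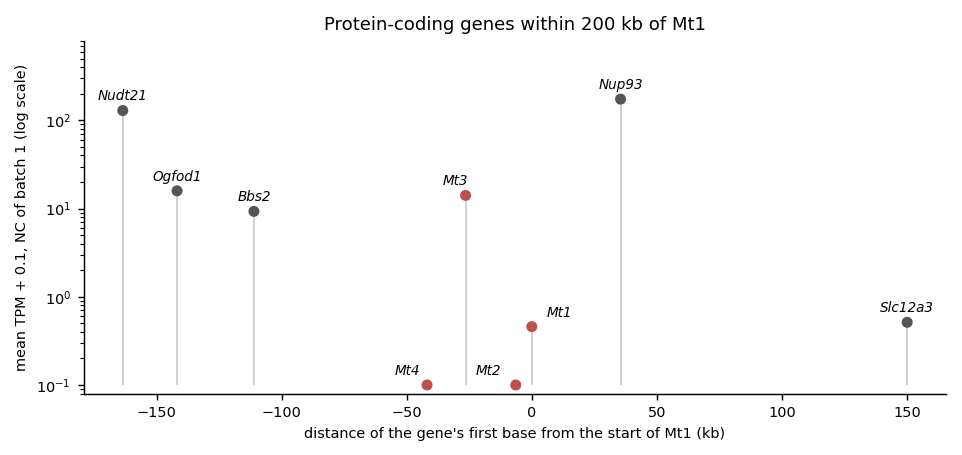
Mean level of the protein-coding genes around Mt1 in NC of batch 1 (TPM plus 0.1, log axis, n = 3) against the distance of their first base from the Mt1 start in kb, with metallothionein genes in red. Mt3 stands at 14.0 TPM beside Mt1, Mt2 and Mt4, which are at or under 0.359 TPM.

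Mt3 (ENSMUSG00000031760, chromosome 8, bases 94152607 to 94154146) was the expressed metallothionein of these cells. Its reads numbered 19, 24 and 25 in NC of batch 1, 35, 14 and 28 in I0-E0, 19, 32 and 37 in I0-E2, 26, 24 and 30 in I0-E4, and 15, 32 and 31 in I2-E2. In batch 2 the reads were 16 and 21 in NC and 24, 25 and 33 in I3-E3-SRS. Scaled to library size, the lowest and the highest value of batch 1 both came from exposed cells, at 1.84 CPM in I0-E0 replicate 2 and 5.69 CPM in I2-E2 replicate 2, and every exposed group overlapped its NC. Of all genes tested, groups did not overlap in either direction for 9.04% in I0-E0, 11.2% in I0-E2, 12.7% in I0-E4, 12.1% in I2-E2 and 18.6% in I3-E3-SRS.

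Group means of Mt3 were 3.02 ± 0.796 CPM in NC, 3.245 ± 1.296 in I0-E0, 3.57 ± 1.06 in I0-E2, 3.81 ± 1.81 in I2-E2 and 3.995 ± 0.384 in I0-E4 (SD, n = 3 each), an order whose neighbours lay within each other's spread. The log2 fold change against NC was 0.41 (SE 0.37) in I0-E4 and 0.32 (SE 0.37) in I2-E2, with edgeR adjusted p of 0.764 and 0.859. The 95% interval in I0-E4 ran from -0.38 to 1.20 on the log2 scale. I0-E2 gave 0.26 (SE 0.37, adjusted p = 0.993 in edgeR) and I0-E0 gave 0.12 (SE 0.37, adjusted p = 1.00 in edgeR). In batch 2, Mt3 was at 2.70 ± 0.435 CPM in NC (n = 2) and 2.57 ± 0.204 in I3-E3-SRS (n = 3), a log2 fold change of -0.05 (SE 0.30, edgeR adjusted p = 1.00) that became 0.10 without NC replicate 1. All 31-base words of Mt3 transcripts are unique to it, and the transcript Mt3-201 took 88.0% to 100% of its reads in every library.

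Mtf1 (ENSMUSG00000028890, chromosome 4, bases 124802104 to 124849800), which encodes the zinc-sensing transcription factor, was expressed in every library. Its levels were 19.01, 19.99 and 15.93 CPM in NC of batch 1, 16.1, 17.3 and 19.1 in I0-E0, 18.9, 17.4 and 20.2 in I0-E2, 14.1, 16.3 and 16.1 in I0-E4, and 13.7, 17.1 and 18.8 in I2-E2. I0-E4 had the lowest mean, 15.5 ± 1.20 CPM against 18.3 ± 2.12 in NC (SD, n = 3), but NC replicate 3 fell within its range. The log2 fold change in I0-E4 was -0.25 (SE 0.13, 95% interval -0.52 to 0.03, edgeR adjusted p = 0.633). It was -0.15 (SE 0.13, edgeR adjusted p = 0.813) in I2-E2, -0.07 (SE 0.13, edgeR adjusted p = 1.00) in I0-E0 and 0.04 (SE 0.13, edgeR adjusted p = 0.993) in I0-E2.

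In batch 2, Mtf1 was at 20.7 and 21.8 CPM in NC and at 18.1, 19.8 and 19.4 CPM in I3-E3-SRS. All exposed libraries were thus lower than both NC libraries on CPM. Groups that did not overlap in this direction were found for 9.82% of the genes tested in this comparison. On TPM the exposed libraries, at 7.06, 10.40 and 8.94, lay between NC replicate 1 at 5.16 and NC replicate 2 at 15.17. The effective lengths of NC replicate 1 are of another form. The log2 fold change was -0.15 (SE 0.11, edgeR adjusted p = 1.00), and -0.18 without NC replicate 1. Over all alternatives it ran from -0.80 to -0.03.

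The reads of Mtf1 were assigned to 5 annotated transcripts in shares that varied between libraries of the same group. The coding transcript Mtf1-201 took 0% to 91.3% (median 66.8%) in batch 1, and Mtf1-202, another coding form, took 0% to 81.9% (median 20.4%) with under 1 read in 9 of the 20 libraries. Mtf1-204, a transcript with a retained intron, took 3.14% to 20.6%. The shares differed this much between libraries of the same group, as in NC of batch 1, where Mtf1-201 took 66.8%, 64.3% and 2.52%, so transcripts were not compared between groups. Within the gene, 92.2% of 31-base words were unique, the rest being shared with 1110065P20Rik, a gene on the opposite strand that overlaps the 3′ end of Mtf1, and without a known strand setting reads of that overlap cannot be told apart.

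**Figure D3:**
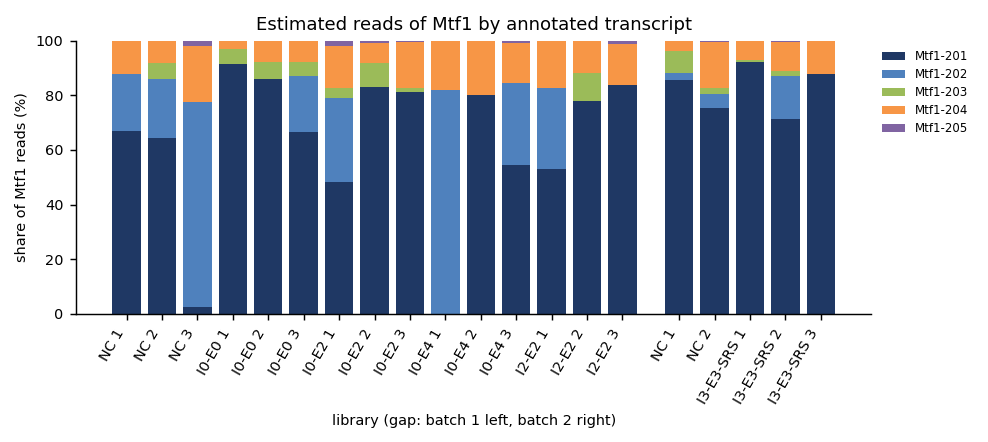
Share of the estimated reads of Mtf1 given to each annotated transcript (stacked bars, percent) in each library of batch 1 (left) and batch 2 (right). Mtf1-201 takes from 0% to 91.3% in batch 1 and Mtf1-202 from 0% to 81.9%, with wide differences between libraries of the same group.

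Slc30a1 (ENSMUSG00000037434, chromosome 1, bases 191906767 to 191913247) encodes ZnT1, the plasma membrane zinc exporter and a target of MTF-1, and had the most reads of the 5 genes. Its levels were 29.8, 32.6 and 32.2 CPM in NC of batch 1, 33.8, 28.7 and 34.5 in I0-E0, 33.2, 33.1 and 35.0 in I0-E2, 37.3, 35.2 and 31.4 in I0-E4, and 36.8, 33.1 and 34.9 in I2-E2. On CPM, all libraries of I0-E2 and of I2-E2 were higher than all of NC, whereas I0-E0 and I0-E4 overlapped NC. Groups that did not overlap in this direction were found for 5.8% of all genes tested in I0-E2 and 6.22% in I2-E2. On TPM, I0-E2 (10.05 to 11.27) and I2-E2 (9.47 to 15.66) both overlapped NC (9.80 to 10.49).

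The differences of Slc30a1 were small. The mean was lowest in NC, at 31.5 ± 1.48 CPM, followed by 32.4 ± 3.16 in I0-E0 and 33.8 ± 1.08 in I0-E2, and highest in I0-E4 and I2-E2, at 34.7 ± 2.96 and 34.9 ± 1.87 CPM (SD, n = 3 each), with neighbours in this order within each other's spread. The log2 fold change was 0.15 (SE 0.09, 95% interval -0.04 to 0.34, edgeR adjusted p = 0.736) in I2-E2 and 0.13 (SE 0.09, edgeR adjusted p = 0.701) in I0-E4. In I0-E2 it was 0.10 (SE 0.09, edgeR adjusted p = 0.993) and in I0-E0 0.04 (SE 0.09, edgeR adjusted p = 1.00). In batch 2 the levels were 48.3 and 48.6 CPM in NC and 56.4, 52.1 and 43.1 CPM in I3-E3-SRS, which lay on both sides of NC. The log2 fold change there was 0.06 (SE 0.12, edgeR adjusted p = 1.00), and 0.05 without NC replicate 1. Of its 31-base words, 91.6% were unique, the rest belonging to an antisense gene that is not among the quantified transcripts.

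**Figure D4:**
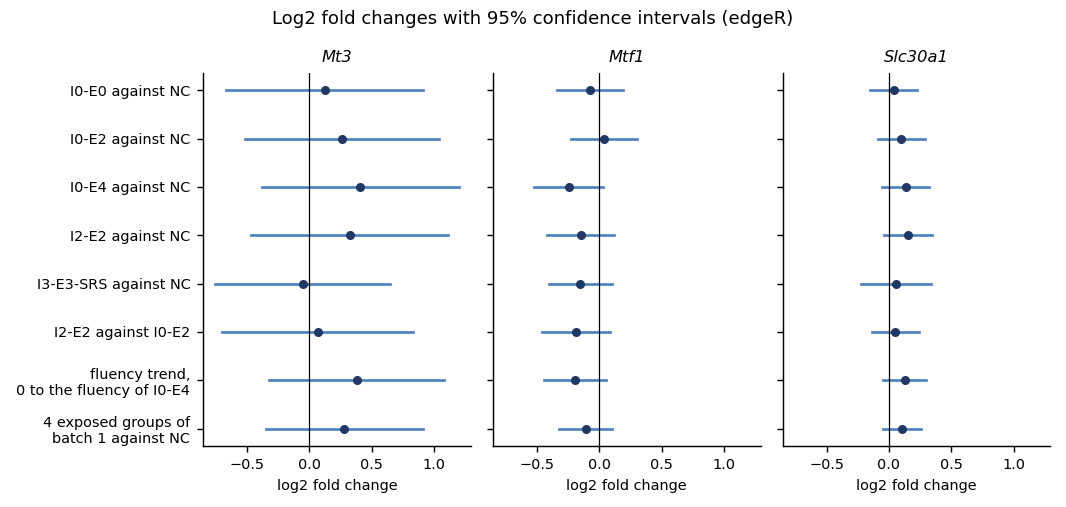
Log2 fold changes (points) with 95% confidence intervals (lines) from edgeR for the 3 members that could be tested, in each of 8 comparisons. Every interval includes 0, and those of Mt3, the gene with the fewest reads, are the widest.

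The same fits were used to compare doses. At equal fluency, I2-E2 (100 mW) differed from I0-E2 (20 mW) by a log2 fold change of 0.07 (SE 0.36) for Mt3, -0.18 (SE 0.13) for Mtf1 and 0.05 (SE 0.09) for Slc30a1, with edgeR adjusted p of 0.996, 0.952 and 0.979. A trend along fluency was fitted over the 20 mW groups and NC, which received no laser and stood for 0 J/cm2. It thus mixes exposure against none with fluency. The fitted change from 0 to 95 J/cm2 was 0.38 (SE 0.33) for Mt3, -0.20 (SE 0.12) for Mtf1 and 0.13 (SE 0.08) for Slc30a1. The edgeR adjusted p were 0.771, 0.685 and 0.702. For the 4 exposed groups of batch 1 against NC the changes were 0.28 (SE 0.30), -0.11 (SE 0.10) and 0.11 (SE 0.07), with edgeR adjusted p of 0.853, 0.839 and 0.808. edgeR called 0 genes in each of these 3 comparisons (a background of 0%), and its unadjusted p was under 0.05 for 645, 893 and 724 genes. DESeq2 called 4, 0 and 0, and limma-voom called 0 in each.

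Across the 15 libraries of batch 1, no permutation p was under 0.05 for any of the 3 pairs of detected members, on the log2 CPM scale. Mt3 and Slc30a1 had Pearson's r = 0.41 (permutation p = 0.132, adjusted p = 0.284) and Spearman's rho = 0.36 (permutation p = 0.187, adjusted p = 0.560), with r = 0.48 after leaving out the 2 libraries farthest from the median. Mtf1 and Slc30a1 had r = -0.36 (permutation p = 0.190, adjusted p = 0.284) and rho = -0.22 (permutation p = 0.426, adjusted p = 0.609), and r turned to 0.14 without such 2 libraries. Mt3 and Mtf1 had r = -0.04 (permutation p = 0.887, adjusted p = 0.887) and rho = -0.14 (permutation p = 0.609, adjusted p = 0.609), with r = -0.44 without 2 libraries. Among 9079 genes with a mean of at least 10 CPM, the patterns most like Mt3 over these libraries were those of Plekho1 (r = 0.853), Armc6 (0.845) and Arvcf (0.839). Those most like Mtf1 were Adnp2 (r = 0.850), Supt7l (0.833) and Gk5 (0.820), and those most like Slc30a1 were Ttc9b (r = 0.849), Hddc2 (0.843) and Dbn1 (0.828). These are the highest of 9079 values for each member and are descriptions only.

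Many other genes of metal handling were expressed at higher levels per length than the metallothioneins. The iron stores Ftl1 and Fth1, the ferritin light and heavy chains, reached 2755 and 1324 TPM in NC of batch 1, and the iron chaperone Pcbp2 reached 513 TPM. The copper chaperones Cox17 and Atox1 were at 359 and 170 TPM, with Commd1, a regulator of copper export, at 178 TPM. Among zinc exporters of the Slc30 family, Slc30a9, Slc30a5 and Slc30a7 led with 131, 83.6 and 11.9 TPM, against 10.0 ± 0.385 TPM for Slc30a1 (SD, n = 3). Among zinc importers of the Slc39 family, Slc39a7, Slc39a6 and Slc39a1 led with 92.0, 57.1 and 39.3 TPM. Of the metal and thiol stress genes, Hspa8, Txnrd1 and Selenow led with 1832, 215 and 164 TPM, while the heat-inducible chaperone gene Hspa1a and Cebpa had 0 reads. Hspa1b of the same list had 15 reads over all libraries, found in 9 of them.

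**Figure D5:**
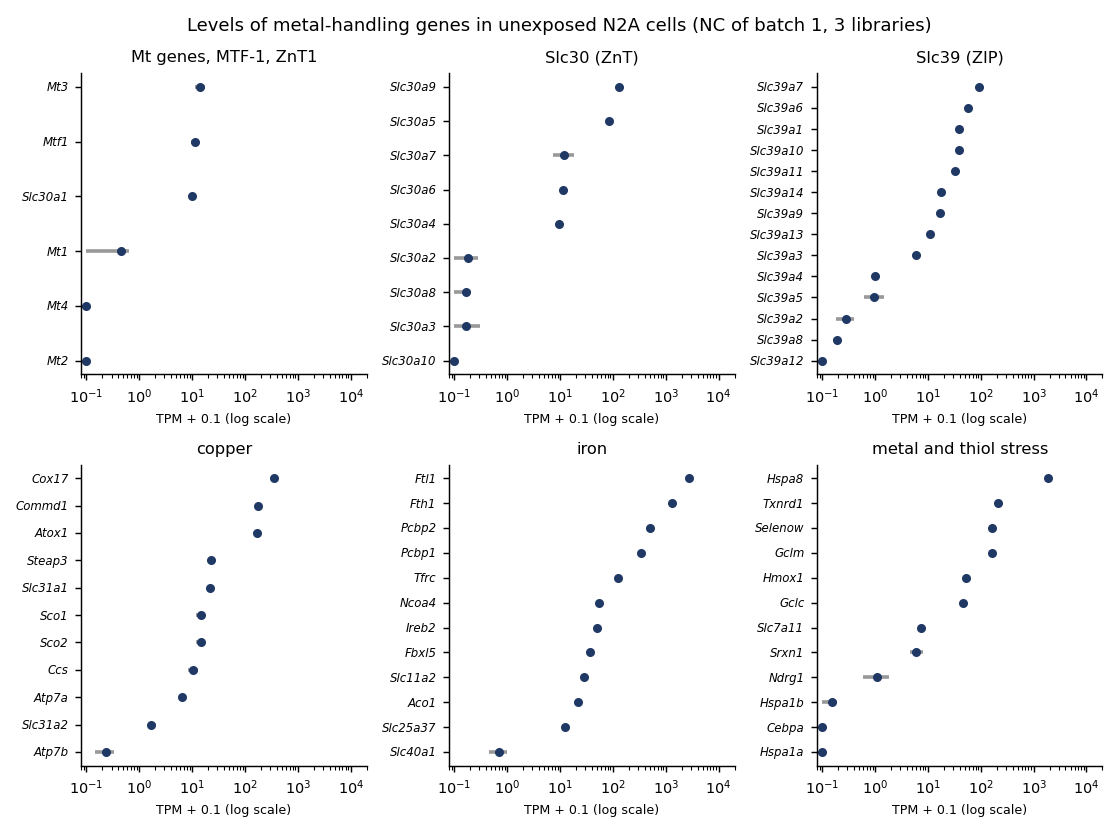
Mean level of each listed metal-handling gene in NC of batch 1 (points, TPM plus 0.1, log axis) with the range of the 3 libraries (lines), by list. Mt1, Mt2 and Mt4 lie at the lower end, while ferritin chains exceed 1000 TPM.

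In edgeR on the filtered genes with all libraries, no list gene passed the threshold in any comparison. Tested were 5 of 9 Slc30 exporters, 10 of 14 Slc39 importers, 10 of 11 copper genes, 11 of 12 iron genes and 9 of 12 stress genes. Over the 5 settings against NC, the median log2 fold change of the Slc30 exporters ran from -0.06 to 0.06 and that of the importers from -0.09 to 0.04. For the copper, iron and stress genes the medians ran from -0.01 to 0.05, from -0.09 to 0.01 and from 0.01 to 0.06. The median of all genes tested stayed between -0.004 and 0.004.

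The list gene with the smallest p on the higher side was the same in 3 settings that share NC. Slc39a7, the ZIP7 transporter that releases zinc from the endoplasmic reticulum, had 119, 109 and 134 CPM in NC of batch 1. It had 143, 147 and 141 CPM in I2-E2, 129, 135 and 137 in I0-E2, and 149, 136 and 132 in I0-E4, so that only I2-E2 did not overlap NC (6.22% of genes in this direction). The log2 fold changes were 0.25 (SE 0.07, edgeR adjusted p = 0.601), 0.15 (SE 0.07, edgeR adjusted p = 0.993) and 0.21 (SE 0.07, edgeR adjusted p = 0.612). In I0-E0 it was Ndrg1, a stress gene with under 2 CPM in every library, at 1.05 (SE 0.53, edgeR adjusted p = 1.00).

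On the lower side, the smallest p belonged to Slc30a7, a Golgi zinc transporter, in I0-E4 (-0.33, SE 0.13, edgeR adjusted p = 0.612), with 24.2, 23.0 and 29.5 CPM against 30.2, 33.3 and 33.6 in NC. Groups did not overlap in this direction for 6.03% of genes. In I2-E2 it belonged to Slc11a2, the iron importer DMT1 (-0.16, SE 0.07, edgeR adjusted p = 0.668), in I0-E2 to Fbxl5, an iron sensor (-0.16, SE 0.08, edgeR adjusted p = 0.993), and in I0-E0 to Hspa8, a constitutive chaperone (-0.07, SE 0.05, edgeR adjusted p = 1.00).

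In batch 2, the values of 2 list genes rested on a single library. Leaving out either NC library leaves the other alone, and the fit then assumes that it varies like the exposed libraries. Slc7a11, the cystine transporter that feeds glutathione synthesis, was at 297 CPM in NC replicate 1, 77.3 in NC replicate 2, and 74.1, 71.6 and 70.5 in I3-E3-SRS. Its log2 fold change of -1.36 (SE 0.45, edgeR adjusted p = 1.00) became -0.10 without NC replicate 1 and -2.04 without NC replicate 2. Sco2, a copper chaperone of cytochrome c oxidase named here after its values were seen, was at 33.3 CPM in NC replicate 1, 17.9 in NC replicate 2, and 19.2, 15.6 and 19.2 in I3-E3-SRS. Its log2 fold change of -0.49 (SE 0.25, edgeR adjusted p = 1.00) became 0.01 without NC replicate 1 and -0.89 without NC replicate 2. Other stress genes were close to the remaining batch 2 libraries in NC replicate 1. Hmox1, the heme oxygenase induced by oxidants and metals, was at 87.1 CPM there against 79.9 in NC replicate 2 and 80.2 to 91.7 in I3-E3-SRS, and Gclc, the catalytic subunit of glutathione synthesis, was at 125 against 146 and 123 to 141 CPM. Srxn1 and Txnrd1, a sulfiredoxin and a thioredoxin reductase, were highest in that library, at 26.5 against up to 25.9 CPM and 650 against up to 629 CPM. Mt1 had 0 reads and Mt2 1 read in that library. On the higher side, Slc39a13, a zinc importer of the secretory pathway, was at 8.27 and 9.12 CPM in NC and 11.6, 11.4 and 12.8 in I3-E3-SRS. Its log2 fold change of 0.45 (SE 0.15, edgeR adjusted p = 1.00) was 0.39 without NC replicate 1. On log2(TPM + 1) it was 0.0955, and -0.0384 without that library. Groups did not overlap in the higher direction for 8.78% of genes in this comparison.

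Several of these genes lay at different levels in the 2 batches, each scaled on its own and with no test between them. Hmox1 ranged from 42.6 to 56.3 CPM over the 15 libraries of batch 1 and from 79.9 to 91.7 CPM over the 5 of batch 2. Txnrd1, thioredoxin reductase, ranged from 380 to 439 CPM and from 602 to 650 CPM, and Slc30a1 from 28.7 to 37.3 and from 43.1 to 56.4 CPM. NC and exposed libraries lay together on each side of these gaps.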

How the data were processed

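Bulk RNA-seq of 20 N2A libraries was analysed. The authors quantified reads per transcript with Salmon (version not given in the sources used here) and deposited estimated counts, which are not normalized, and TPM, which are estimated counts per effective length scaled to a fixed sum. The genome build, transcript release and strand setting were not stated in these sources. Transcripts were summed to genes with GENCODE vM21 (98.6% of identifiers matched; unmatched transcripts held 0.664% to 0.748% of reads and were left out). Groups, replicate numbers and batches came from the labels, and powers, fluencies and dwell times from the file labels and the study's methods.

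Summed counts were rounded and tested with edgeR 4.0.16 in R 4.3.3 (filterByExpr at a minimum count of 10, TMM, glmQLFit and glmQLFTest, Benjamini-Hochberg over 12296 genes in batch 1 and 12031 in batch 2). Each batch was fitted separately with group as the factor, leaving 10 and 3 residual degrees of freedom. CPM are on TMM library sizes. Mt1 and Mt2 failed the filter. Mt1 was compared by summed reads with exact intervals where a group exceeded 3 reads, and Mt2 was not compared. DESeq2 1.42.0 and limma 3.58.1, other filters and scalings, a replicate block and leaving out each library were alternatives. The fits were also run on simulated counts drawn with the fitted spread of each batch. Such counts hold no outlying library like batch 2 NC replicate 1, and no conclusion is drawn from them. Permutation tests used 100000 draws and were two-sided.

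The members and gene lists were chosen with earlier results of these data known. Named by rule are the 5 members and the list gene with the smallest p on each side per setting. The 3 highest genes per list and the 3 genes most like each tested member are also named by rule. Neighbours of Mt1, some marker genes and a gene overlapping Mtf1 are named as context. Hmox1, Gclc, Srxn1, Sco2, Hspa1a, Hspa1b and Cebpa fall under none of these rules. Nor did a rule pick Hmox1, Txnrd1 and Slc30a1 as examples of levels that differ between batches. Some genes are not reported here. Replicate numbers were not treated as pairs, since the study's methods name no such pairing. The deviations of exposed libraries from their group means correlated with those of the same-numbered NC library by -0.0765 to 0.13. The value of 0.13 was that of I0-E0 replicate 3, the only pair above 0.1.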

Additional observations from a re-analysis of the deposited data

How the results depend on the processing

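Of 402 member fold changes recomputed under alternatives, 383 kept their direction, 19 turned it and 0 were called, and 17 of the 24 member comparisons had no turn. Depth limits Mt1 and Mt2 to counting intervals in every setting, and 14 to 37 reads per library limit Mt3. Without a filter on low counts, 110 genes were called in I0-E0, 160 in I2-E2, 46 in I0-E2, 172 in I0-E4, 194 in I3-E3-SRS, 125 in I2-E2 against I0-E2, 134 along fluency and 108 over all exposed groups of batch 1, in 25283 genes of batch 1 and 20213 of batch 2; the cause was not tested. DESeq2 called 1 gene in I0-E0, 1 in I0-E4, 15 in I3-E3-SRS and 4 in I2-E2 against I0-E2, and the fit of only those last groups called 2. With log2(TPM + 1) and log2(TPM + 0.1), 1 and 7 genes were called in I3-E3-SRS, and 4 and 3 without NC replicate 1, an alternative chosen after seeing the data. Leaving out each library gave 0 to 1 calls in I0-E0, I0-E2 and I0-E4, 0 to 2 in I2-E2 and over all exposed groups, 0 to 0 along fluency and in I2-E2 against I0-E2, and 0 to 671 in I3-E3-SRS, the 671 without NC replicate 2, which leaves replicate 1 alone and assumes that it varies like the exposed libraries.

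The replicate block gave 0 calls in the comparisons of batch 1 and 6 in I3-E3-SRS, none of them a member; the libraries share only a number. In I3-E3-SRS, Mt3 turned from -0.05 to 0.41 and 0.45 on log2(TPM + 1) and log2(TPM + 0.1), and to 0.0343 and 0.0366 there without NC replicate 1, in which Mt3 was at 6.54 TPM against 11.7 in NC replicate 2. Without that library Slc39a13 turned to -0.0384 and -0.0424 on these scales. In I2-E2 against I0-E2, Mt3 turned from 0.07 to -0.0212 with limma-voom, -0.00942 on log2(TPM + 1) and -0.0143 on log2(TPM + 0.1). Leaving out libraries moved Mt3 from -0.16 to 0.40 in I0-E0, from -0.0396 to 0.61 in I2-E2, from -0.22 to 0.10 in I3-E3-SRS and from -0.30 to 0.35 in I2-E2 against I0-E2. It moved Mtf1 in I0-E2 from -0.0481 to 0.10, Slc30a1 in I0-E0 from -0.0127 to 0.11 and Slc30a1 in I3-E3-SRS from -0.0209 to 0.16. Without a turn, leaving out libraries moved Mt3 from 0.09 to 0.48 in I0-E2 and from 0.24 to 0.61 in I0-E4, and Mtf1 from -0.27 to -0.04 in I2-E2. Slc7a11 in I3-E3-SRS was called at -1.35 without a filter, and its fold change moved to -2.04 without NC replicate 2. On TPM in place of CPM, the mean as a percentage of NC in I3-E3-SRS was 132 for Mt3 and 119 for Slc30a1, and without NC replicate 1 it was 103 for Mt3, 115 for Slc30a1 and 58.0 for Mtf1. It was 83.9 for Mtf1 in I0-E0, 116 for Mtf1 in I0-E2 and 122 for Slc30a1 in I2-E2. The correlation of Mt3 and Mtf1 turned to 0.14 on TPM and 0.15 on residuals from group means, and that of Mt3 and Slc30a1 to -0.0665 on TPM.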
